A study of Homo sapiens with 6 samples.

Results

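The clustered protocadherin genes were followed through 6 ATAC-seq peak lists, as the peaks with a summit in the hg19 window chr5:140160001-140900000. The window held 304 of the 914202 peaks listed on chromosomes 1 to 22 and X. Of these, 85 lay in the PCDHA window (140.16 to 140.4 Mb), 99 in the PCDHB window (140.42 to 140.63 Mb), 114 in the PCDHG window (140.7 to 140.9 Mb) and 6 between them. ATAC-seq inserts adapters with a transposase into DNA that nucleosomes and other proteins leave free, so a peak marks accessible chromatin. The cells were the human osteosarcoma line U2OS, either wild type (WT, 3 libraries) or with CRAMP1 knocked out (CRAMP1-KO, 3 libraries), both without further treatment. The labels do not give separate cultures for the replicates or a clone for the knockout, so each p measures the spread between libraries, which may be technical. They name no batch. From other work CRAMP1 is known to regulate genes of linker histones, the proteins that bind DNA between nucleosomes. The design asks which accessible sites differ without it.

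Clustered protocadherins are cell adhesion proteins, best known in neurons, where each cell uses a few of them and so gains a surface identity. Every variable exon of the PCDHA and PCDHG clusters has its own promoter and is spliced to shared constant exons, while PCDHB genes are made of a single exon. Many of these promoters carry a conserved sequence element with the core CGCT and are bound by CTCF, which with cohesin loops a chosen promoter to a distant enhancer. The C-type genes, PCDHAC1, PCDHAC2, PCDHGC3, PCDHGC4 and PCDHGC5, stand at the ends of their clusters and are known to be used more broadly than the alternate genes.

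The promoters come first, because the peaks described later sit on or beside them. RefSeq promoters of GRCh38.p14 (250 bases before to 50 after the start) were matched for 47 of the 53 genes, and 6 had no entry: PCDHA3, PCDHA13, PCDHB6, PCDHB11, PCDHGA12 and PCDHGC5. On either strand CGCT stood in 46 of the 47, against 69.4% of 27305 promoters in the table. On the strand of the gene, with its first base from 100 to 30 bases before the start (a range chosen after the sequences were seen), it stood in 43 of the 47, against 21.7% of all promoters. The word AGGNGGCAG, 1 spelling of a CTCF core, was in 0 of the 47 on either strand and in 4.49% of all promoters. Other spellings were not searched, among them those that run into CGCT, so nothing about CTCF follows from this. The stretches below lie upstream of the start, read 5′ to 3′ on the + strand of GRCh38.p14 (a different build from the peaks), with CGCT in capitals. The capitals mark 1 copy of these bases per promoter. Whether that copy belongs to the conserved element was not tested. The stretches were chosen to set starts with stronger peaks beside starts with weaker or no peaks in the same cluster. Stronger is relative to that cluster, and the strongest starts were not always taken.
PCDHA4, chr5:140806975-140807018: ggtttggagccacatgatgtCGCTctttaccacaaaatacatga
PCDHA7, chr5:140834168-140834211: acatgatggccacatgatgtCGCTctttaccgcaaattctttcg
PCDHA11, chr5:140868879-140868922: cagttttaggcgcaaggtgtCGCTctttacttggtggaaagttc
PCDHAC1, chr5:140926216-140926259: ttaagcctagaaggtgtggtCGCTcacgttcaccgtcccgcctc
PCDHAC2, chr5:140966415-140966458: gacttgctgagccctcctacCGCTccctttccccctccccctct
PCDHB4, chr5:141121719-141121762: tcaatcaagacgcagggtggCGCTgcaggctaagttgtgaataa
PCDHB5, chr5:141135175-141135205: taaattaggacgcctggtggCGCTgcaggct
PCDHB14, chr5:141223259-141223302: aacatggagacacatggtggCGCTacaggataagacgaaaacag
PCDHGA7, chr5:141382645-141382688: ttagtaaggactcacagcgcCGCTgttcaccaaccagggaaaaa
PCDHGA10, chr5:141412927-141412970: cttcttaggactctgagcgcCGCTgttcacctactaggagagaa
PCDHGA11, chr5:141420968-141421011: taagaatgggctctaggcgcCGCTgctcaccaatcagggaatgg
PCDHGC3, chr5:141475895-141475938: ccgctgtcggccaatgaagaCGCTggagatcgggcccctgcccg
PCDHGC4, chr5:141484948-141484991: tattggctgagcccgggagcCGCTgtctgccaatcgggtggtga

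The bases around CGCT differed by cluster. The 8-base word held by most PCDHA promoters was ATGTCGCT, in 9 of 13 and in 0.157% of all promoters. In PCDHB it was GGTGGCGC, in 13 of 14 and in 1.27% of all promoters, and in PCDHG it was GCCGCTGT, in 11 of 20 and in 0.894% of all. The words were read from these promoters, so their counts are a description. PCDHA4 and PCDHA7 share a run of 23 bases across the element, which is the longest run either of them shares with another promoter of the family. A listed summit nevertheless lay within 1000 bp of the PCDHA4 start in 6 libraries and of the PCDHA7 start in 0, as described below. The absence of a listed peak does not measure accessibility at PCDHA7.

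Peaks lay at many but not all starts. Starts were written by hand for hg19 and used only where their spacing was within 500 bp of that in the GRCh38.p14 gene table, which left 51 of 53 (14 PCDHA, 15 PCDHB, 22 PCDHG) and dropped PCDHA9 and PCDHB16. Within 1000 bp, 26 of the 51 starts had a summit in all 6 libraries, 16 in some of them and 9 in none. A summit in all 6 libraries was found at 10 of 14 PCDHA starts, 9 of 15 PCDHB starts and 7 of 22 PCDHG starts. Within 500 bp these were 8, 9 and 7, because the summits at PCDHA2 and PCDHA4 lie farther from the start in most libraries. The starts with no summit were PCDHA3, PCDHA7, PCDHB4, PCDHB7, PCDHGA3, PCDHGA5, PCDHGA6, PCDHGA11 and PCDHGC4. A start without a listed peak was below the authors' threshold, which does not show that it was closed. Among the PCDHG genes the subfamilies differed in count: 2 of 12 PCDHGA starts and 3 of 7 PCDHGB starts had a summit in all 6 libraries, 4 PCDHGA starts had none, and every PCDHGB start had one in at least 2 libraries.

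CGCT alone, held by nearly all matched promoters, cannot show whether the conserved element separates these classes. It stood between 100 and 30 bases before the start in 21 of the 23 matched promoters with a summit in all 6 libraries, 13 of 14 with one in some, and 8 of 8 with none. PCDHB5 and PCDHGB2, with a summit in all 6 libraries, held CGCT outside this range, 11 and 199 bases before the start. In the same order, the 300 bases of these classes held a median of 8, 6.5 and 6.5 CpG pairs, against 14 over all promoters in the table. Copies of one another could draw reads that do not map to 1 place, and how the authors treated such reads was not given in the sources used here. Between promoters of the family, the longest exact shared run had a median of 17 bases at starts with no summit, 19.5 at those in some libraries and 17 at those in all 6. Runs of 50 bases or more were found for PCDHGB4 with PCDHGB5 (78 bases) and PCDHB8 with PCDHB13 (55 bases), so values at these 4 starts are uncertain. Only the 300 bases of each promoter were compared. Summits of alternate PCDHA genes had a median position 349 bp downstream of the start, up to an unknown shift, as described below. The sequence under most of them may therefore not have been compared. Whether reads map to 1 place was not tested at the peaks or at the starts without one, so other starts may also be affected.

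**Figure D1:**
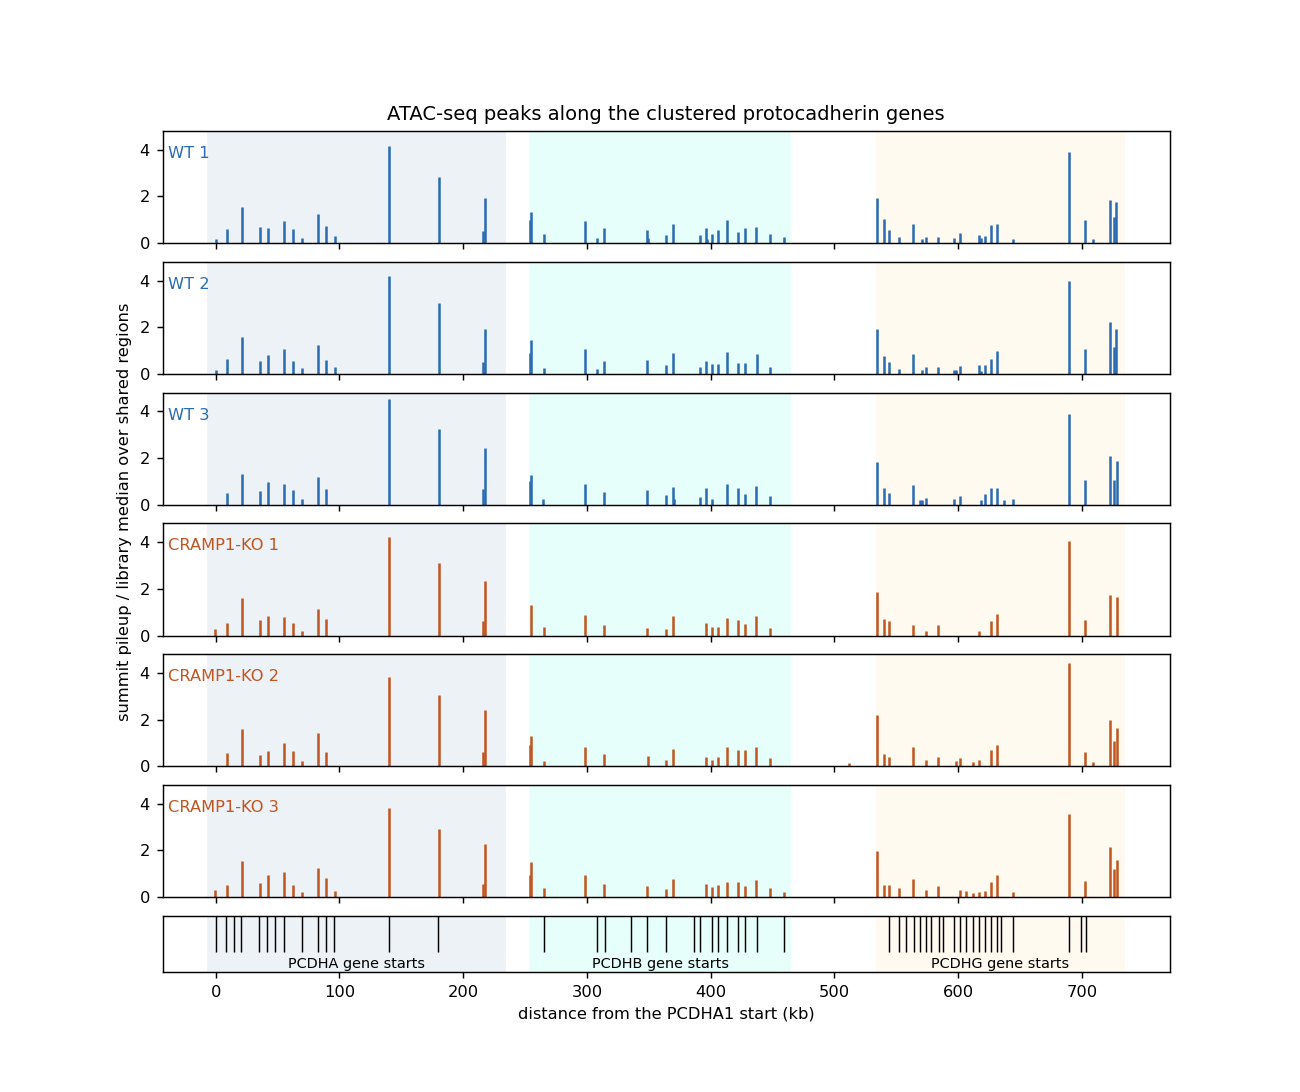
Summit pileup of every peak in the window, divided by the library's median over regions shared by all 6 libraries (vertical axis), against distance from the PCDHA1 start in kb (horizontal axis), with 1 row per library and protocadherin starts as ticks in the lowest row. The same 3 tall peaks, at PCDHAC1, PCDHAC2 and PCDHGC3, stand out in all 6 libraries, at about 3 to 4 times the median.

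Peak height is given as the summit pileup, the number of fragments stacked at the summit, solved from the authors' fold enrichment and −log10 p. It is a level, and it was divided by the library's median over the 92505 merged regions with a peak in all 6 libraries to compare libraries (for WT replicates 1, 2 and 3 these medians were 97, 87 and 53, and for CRAMP1-KO 61, 62 and 96). The C-type genes held the highest levels. PCDHAC1, at the region chr5:140305484-140306875, had pileups of 404, 364 and 239 in the WT libraries against 257, 238 and 367 in those of CRAMP1-KO, a mean of 4.12 times the library median. PCDHGC3 (chr5:140855128-140856448) had 378, 346 and 205 in the WT libraries against 246, 274 and 341 in those of CRAMP1-KO, 3.95 times the median. PCDHAC2 (chr5:140345503-140346625) had 276, 266 and 172 in the WT libraries against 189, 190 and 280 in those of CRAMP1-KO, 3.04 times the median. These 3 were the strongest regions of the whole window in every library, and the genotypes overlapped at each. The other C-type genes did not share this: PCDHGC5 was at 0.825 times the median and PCDHGC4 had no peak.

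Alternate genes were mostly below the library median. PCDHA4 was the strongest of them, with pileups of 148, 139 and 70 in the WT libraries against 99, 99 and 149 in those of CRAMP1-KO (1.53 times the median, region chr5:140186468-140187495). PCDHA7, with the same 23 bases at its element, had no listed summit in any library. PCDHA11 followed at 1.25 times the median, PCDHA8 at 0.950 and PCDHGB7 at 0.878. At the lower end were PCDHA10 at 0.224 and PCDHGB2 at 0.263, the latter with pileups from 11 to 29. Among PCDHB starts with a summit in all 6 libraries the range was from 0.304 at PCDHB1 to 0.826 at PCDHB11. For scale, 9 of 10 starts of other genes in the same chromosome band had a summit within 500 bp in all 6 libraries, at 8 distinct peaks (HDAC3 and RELL2 share 1) with a median of 3.46 times the library median, from 0.317 at DND1 to 4.66 at HARS2. The start without one was SLC25A2, which lies between the PCDHB and PCDHG clusters.

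The remaining members are given by cluster. In PCDHA, PCDHA6 had pileups of 64, 70 and 51 for WT and 51, 41 and 90 for CRAMP1-KO, PCDHA12 of 72, 51 and 36 for WT and 44, 37 and 79 for CRAMP1-KO, and the genotypes overlapped at both. PCDHA2, at 59, 55 and 26 for WT and 32, 35 and 48 for CRAMP1-KO, likewise overlapped. The first and last alternate genes were the least regular: PCDHA1 had a peak in 2 libraries of each genotype (pileups 13 to 29) and PCDHA13 in 2 WT libraries and 1 CRAMP1-KO library. Peaks at the strongest starts of this cluster were broad. They spanned 1231 to 1368 bp at PCDHAC1, 981 to 1123 bp at PCDHAC2 and 954 to 1016 bp at PCDHA4. Each of these 3 regions was a single peak in every library. Some weaker starts had narrower peaks, with 308 to 716 bp at PCDHA10 and 167 to 460 bp at PCDHA1.

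In PCDHB, PCDHB11 was the strongest start, with pileups of 97, 80 and 47 for WT and 45, 50 and 63 for CRAMP1-KO. PCDHB14 followed at 0.797 times the median, with 69, 76 and 43 for WT and 52, 50 and 71 for CRAMP1-KO. PCDHB1, which stands apart at the head of its cluster, was low but wide, with pileups of 13 to 37 and widths of 444 to 1404 bp. PCDHB2 had a peak in WT replicates 1 and 2 alone (pileups 22 and 19), PCDHB15 in replicate 1 of WT and replicate 3 of CRAMP1-KO (25 and 23), and PCDHB10 in all libraries but WT replicate 3. PCDHB2 and PCDHB15 were thus listed only in libraries that are among the 3 with the longest lists.

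In PCDHG, PCDHGB7 had pileups of 81, 86 and 37 for WT and 55, 57 and 92 for CRAMP1-KO. PCDHGB1 had 80, 73 and 44 for WT and 27, 52 and 73 for CRAMP1-KO, with CRAMP1-KO replicate 1 low. PCDHGA10 had 74, 56 and 37 for WT and 39, 42 and 64 for CRAMP1-KO. PCDHGB6 was listed in all WT libraries (29, 32 and 24) and in CRAMP1-KO replicate 3 alone (27). PCDHGB3 went the other way, missing only in WT replicate 3, with 25 and 25 for WT and 27, 26 and 45 for CRAMP1-KO. In all, 10 of 22 PCDHG starts and 2 of 14 PCDHA starts had a summit in some libraries only.

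**Figure D2:**
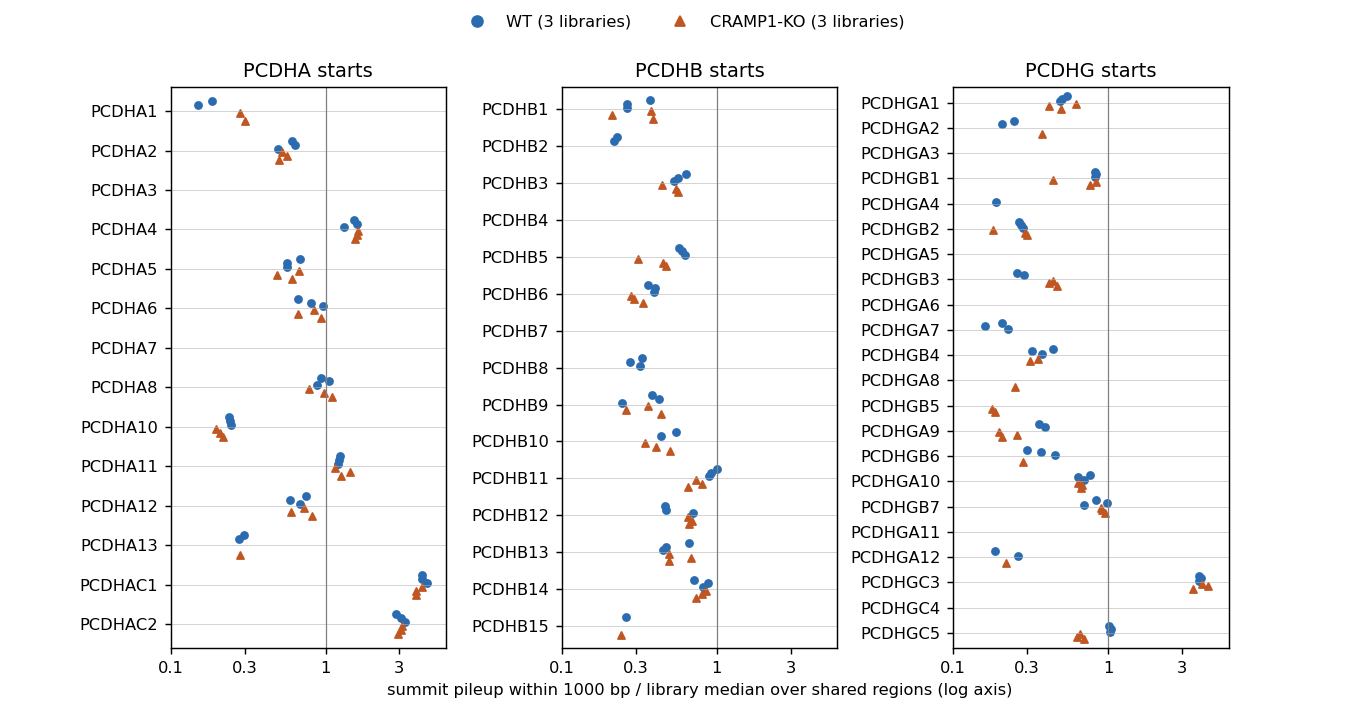
Summit pileup within 1000 bp of each protocadherin start, divided by the library median over shared regions (horizontal log axis), for 3 WT libraries (circles) and 3 CRAMP1-KO libraries (triangles); starts without a mark had no summit. PCDHAC1, PCDHAC2 and PCDHGC3 lie at 3 to 4 and most alternate genes below 1, and at PCDHGC5 the WT libraries lie above the CRAMP1-KO libraries.

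Most alternate PCDHA genes had their summit farther downstream than the genes of the other clusters. Each hand-written start differs in spacing from the gene table, by a median of 61 bp and at most 356 bp, and the difference varies with the cluster, with a median of 106 bp over these PCDHB genes and -42 bp over these PCDHG genes. Positions are therefore given with that difference subtracted, a step added after the data were seen. They share 1 unknown shift, so they place the clusters relative to one another. Downstream and upstream are meant on this scale, and the distance from the true start is uncertain. With the C-type genes left out, 10 PCDHA starts had a summit within 1000 bp. Their median position was 349 bp downstream, with 8 of 10 downstream and PCDHA1 and PCDHA11 upstream. PCDHA11 was at -130 bp, among the positions of the other clusters. PCDHA1 was at -9.5 bp, with libraries from -125 to 104 bp. The 13 PCDHB starts had a median of -122 bp (upstream), and the 15 PCDHG starts -141 bp. Of the PCDHB starts 11, and of the PCDHG starts 13, lay from 200 to 80 bp upstream. The range of library medians was 211 to 401 bp for PCDHA, -136 to -115.5 bp for PCDHB and -157 to -124.5 bp for PCDHG, so PCDHB and PCDHG overlapped. As written by hand, without the subtraction, the medians were 329, -29.5 and -170 bp. All libraries use the same starts, so their agreement says nothing about an error of a start.

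Some genes kept their summit in place and others did not. PCDHA8 ranged over 6 bp between libraries and PCDHA4 over 69 bp. The range was at most 100 bp at 5 of 10 PCDHA starts, 8 of 13 PCDHB starts and 8 of 13 PCDHG starts with a summit in at least 2 libraries. It reached 424 bp at PCDHB1 and 368 bp at PCDHA10. At PCDHA10 the summit stood at 327, 437 and 323 bp in WT libraries and at 106, 69 and 106 bp in CRAMP1-KO libraries, without overlap, on low pileups of 12 to 23. This gene was singled out after its values were seen. How often summit positions separate the genotypes at other starts or over the genome was not counted, so nothing about genotype follows.

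**Figure D3:**
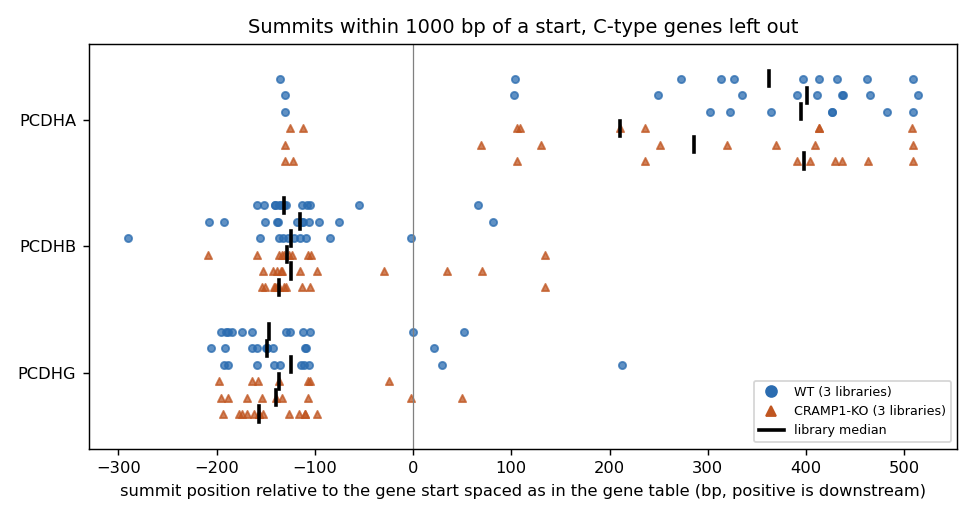
Position of the summit relative to the gene start, with starts spaced as in the gene table, in bp (horizontal axis, positive is downstream) for the alternate genes of each cluster, with 1 row of marks per library (circles WT, triangles CRAMP1-KO) and a black bar at each library's median. PCDHA medians lie from 211 to 401 bp, while PCDHB and PCDHG medians overlap between -157 and -115.5 bp. All positions share 1 unknown shift.

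Of the 64 regions formed by merging the peaks of all libraries, 21 had no start assigned, 11 of them with a peak in all 6 libraries. They include regions in the intervals that hold the dropped starts of PCDHA9 and PCDHB16. In each list 60 to 69.2% of the window's peaks lay within 500 bp of a used protocadherin start. Downstream of PCDHAC2, the region chr5:140383496-140384256 was at 2.2 times the library median, with pileups of 186, 168 and 128 in the WT libraries against 142, 150 and 217 in those of CRAMP1-KO. The region chr5:140419319-140421014, at the lower edge of the PCDHB window, was at 1.37 times. Beyond PCDHGC5, the regions chr5:140888194-140889253 and chr5:140892844-140894444 were at 1.99 and 1.74 times. Distal enhancers are known downstream of the PCDHA and PCDHG clusters, but no hg19 annotation was used here, so these regions were not matched to them. Within PCDHB, shared regions lay between PCDHB6 and PCDHB7 (0.806 times the median) and between PCDHB14 and PCDHB15 (0.351 times), where the gene table places the pseudogenes PCDHB17P, PCDHB18P and PCDHB19P. The region chr5:140699811-140700760 at the edge of the PCDHG window belongs to TAF7, which encodes a subunit of the general transcription factor TFIID, and was at 1.95 times the median.

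Peak numbers overlapped between genotypes. Over the whole cluster there were 58, 54 and 50 peaks in the WT libraries against 42, 48 and 52 in those of CRAMP1-KO, from lists of 132686 to 198875 peaks. As a share of each list this was 3.42 ± 0.444 per 10000 in the WT libraries against 3.29 ± 0.154 in those of CRAMP1-KO (SD, n = 3; two-sided exact permutation p = 0.7). With 3 libraries against 3 this test cannot give a p below 0.1. PCDHA took 0.908 ± 0.133 and 0.977 ± 0.0612 per 10000 (SD, n = 3; exact p = 0.6), and PCDHB 1.11 ± 0.1005 and 1.07 ± 0.0547 (exact p = 0.7). PCDHG took 1.33 ± 0.206 and 1.18 ± 0.178 (SD, n = 3; exact p = 0.4), from 22, 21 and 20 peaks in the WT libraries against 13, 18 and 20 in those of CRAMP1-KO. Replicate 1 of CRAMP1-KO was thus the lowest in PCDHG, while the other CRAMP1-KO libraries were near WT. Without WT replicate 1 the difference over the whole window went from -0.122 to -0.372 per 10000, and without WT replicate 3 to 0.0542.

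In a limma fit over 3744 tiles of 740 kb along the genome, the window's peak share changed by -0.043 on the log2 scale (CRAMP1-KO minus WT, SE 0.108, Benjamini-Hochberg adjusted p = 0.820), and 18.0% of tiles passed the threshold of 0.05. Its peak number stood between the percentiles 61.8 and 74.3 of the tiles in the 6 libraries. The number of starts with a summit within 500 bp was 37, 35 and 30 in the WT libraries against 28, 30 and 36 in those of CRAMP1-KO (exact p = 0.5). The lowest background of a list, which scales with depth, was 5.12, 3.87 and 2.55 in the WT libraries against 3.19, 3.02 and 4.08 in those of CRAMP1-KO. The highest counts thus came from the lists with the highest background in each genotype, and its part in these counts was not tested.

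**Figure D4:**
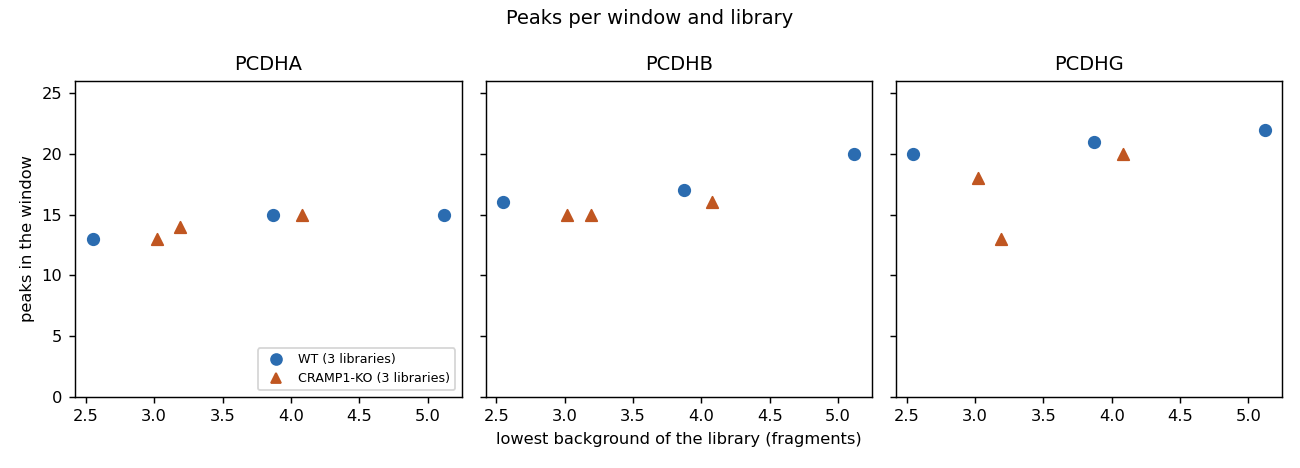
Number of peaks in the PCDHA, PCDHB and PCDHG windows (vertical axis) against the lowest background of the library in fragments (horizontal axis), 3 WT libraries as circles and 3 CRAMP1-KO libraries as triangles. PCDHA varies least, from 13 to 15 peaks, and PCDHG most, from 13 to 22.

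Spacing and width were compared next. The median distance between neighbouring summits of a window was 8040 ± 220 bp in the WT libraries against 9871 ± 472 bp in those of CRAMP1-KO (SD, n = 3; exact p = 0.1, the smallest possible). These medians pooled the 3 windows, and the libraries did not overlap, at 7892.5, 7935 and 8293 bp against 10197, 10085 and 9330 bp. Within each window they overlapped. PCDHA had 10628, 10631.5 and 12383.5 bp in the WT libraries against 12216, 12518.5 and 10743.5 bp in those of CRAMP1-KO. PCDHB had 9059, 9318.5 and 9958 bp against 9941, 9825.5 and 10382 bp. PCDHG had 6300, 5254 and 5277 bp against 10147, 10010 and 5533 bp. The pooled medians also overlapped in lists cut to equal length, where the difference fell from 1830.5 to 701 bp, and with stricter q limits. Starts themselves were spaced by medians of 6938 bp in PCDHA, 9472 bp in PCDHB and 4985 bp in PCDHG. The median peak width was 484 ± 24.2 bp in the WT libraries against 518 ± 34.0 bp in those of CRAMP1-KO (SD, n = 3; exact p = 0.2). By cluster it was 763 to 809 bp in PCDHA, 398 to 504 bp in PCDHB and 316.5 to 488 bp in PCDHG.

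The deposited fold enrichment, the authors' ratio of pileup to local background, was ranked here within each list. Its comparison between genotypes, as an alternative to pileup, is given below. The median PCDHA peak stood between the percentiles 72.5 and 84.1 of its list, the median PCDHB peak between 58.8 and 73.6, and the median PCDHG peak between 50.0 and 62.3. Bases under peaks in the window were 382 ± 16.9 per 1000000 bases under all peaks in the WT libraries against 355 ± 12.5 in those of CRAMP1-KO (SD, n = 3; exact p = 0.2). At a −log10 q of at least 5 the same shares were 413 ± 2.83 and 382 ± 21.8 (SD, n = 3; exact p = 0.1) and no longer overlapped. In lists cut to equal length they were 402 ± 11.9 and 367 ± 29.2 (SD, n = 3, exact p = 0.3) and did overlap.

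Merging overlapping peaks of the 6 lists gave 64 regions, of which 38 (59.4%) had a peak in all 6 libraries, against 37.3% of 248031 merged regions in the genome. The share was 13 of 15 in PCDHA, 14 of 19 in PCDHB and 11 of 29 in PCDHG.
Regions with a peak in all 3 WT libraries and in no CRAMP1-KO library numbered 3 of the 64, against 1.14% of all regions. The reverse numbered 0 of the 64, against 0.767% of all regions. The differences between these shares were not tested. A further 23 regions had a peak in some libraries, more often WT at 13, more often CRAMP1-KO at 6 and equally at 4. How such regions split over the whole genome was not counted, so nothing about genotype follows from this.

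The WT-only regions were weak. At PCDHB8 (chr5:140557278-140557619) the WT pileups were 32, 24 and 17, with fold enrichments of 5.39, 5.14 and 5.07. At PCDHGA7 (chr5:140762211-140762539) they were 20, 14 and 12, and between PCDHGA9 and PCDHGB6 (chr5:140784098-140784679) they were 20, 12 and 10. None of the 3 CRAMP1-KO libraries listed a peak there. The lowest background, which scales with depth, is given per library above, and its part in these absences was not tested. PCDHB8 is a start whose promoter shares 55 bases with that of PCDHB13, where the centred pileup differed by 0.07 (log2, SE 0.184, limma adjusted p = 0.812). Other starts went the opposite way without meeting the rule, as PCDHGB5, with a peak of pileup 11 and 18 in CRAMP1-KO replicates 2 and 3 and none in WT.

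At the 38 shared regions, limma on log2 centred summit pileup over all 92505 shared regions called 3, each lower in CRAMP1-KO. That is 7.89% of the 38, against 24.9% of all shared regions called in either direction and 15.5% called lower. The change had a median of -0.03 in the window and -0.07 over all shared regions (log2, CRAMP1-KO minus WT). By cluster it was -0.01 in PCDHA (13 regions), -0.05 in PCDHB (14) and -0.08 in PCDHG (11). The genotypes did not overlap at 8 of the 38 regions with CRAMP1-KO lower, where 23.7% of all shared regions did so, and at 0 with CRAMP1-KO higher, where 14.4% did. The 8 were PCDHA10, PCDHB5, PCDHB6, PCDHB11 and PCDHGC5, a region between PCDHB8 and PCDHB9, the region upstream of PCDHGA1 and the region beyond PCDHGC5 at chr5:140892844-140894444. These shares of the 38 were near or below those of all shared regions. In the 1 Mb on either side, flanks chosen after the data were seen, the median changes were -0.17 (68 regions) and -0.20 (74 regions). In the 5 Mb on either side they were -0.11 (267 regions) and -0.05 (236 regions).

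PCDHGC5 had the firmest of the 3 calls. Its region, chr5:140868193-140869202, had pileups of 98, 91 and 55 in the WT libraries against 40, 39 and 67 in those of CRAMP1-KO. After centring on the library median these were 0.015, 0.065 and 0.053 in the WT libraries against -0.609, -0.669 and -0.519 in those of CRAMP1-KO, with no overlap and a gap larger than the spread within either genotype. The difference was -0.64 (log2, SE 0.143, limma adjusted p = 0.000547), and it stayed called without each library in turn, at -0.68 to -0.61. On the authors' fold enrichment in place of pileup it was -0.22 (log2, SE 0.134, limma adjusted p = 0.342), and the fold of CRAMP1-KO replicate 3, 9.60, lay within the WT values of 8.46, 10.2 and 9.07. Its summit stood at -89 bp from the hand-written start in CRAMP1-KO replicate 3 and from -209 to -202 bp in the other libraries. PCDHGC5 is the last variable exon of the PCDHG cluster.

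PCDHB5 (chr5:140514693-140515760) had pileups of 55, 52 and 33 in the WT libraries against 19, 28 and 45 in those of CRAMP1-KO. Centred values were -0.819, -0.743 and -0.684 in the WT libraries against -1.683, -1.147 and -1.093 in those of CRAMP1-KO, without overlap. The difference was -0.56 (log2, SE 0.187, limma adjusted p = 0.0213). It was -0.36 without CRAMP1-KO replicate 1 (limma adjusted p = 0.188), the lowest library, and it also missed the threshold without WT replicate 2 (0.0627) or WT replicate 3 (0.0594).

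The third called region lies upstream of PCDHGA1, at chr5:140705692-140706251, between the TAF7 and PCDHGA1 starts. Its pileups were 99, 67 and 37 in the WT libraries against 42, 33 and 50 in those of CRAMP1-KO, and its centred values 0.029, -0.377 and -0.518 against -0.538, -0.910 and -0.941. WT replicate 3 and CRAMP1-KO replicate 1 were nearly equal. The difference was -0.51 (log2, SE 0.165, limma adjusted p = 0.0180). It missed the threshold without WT replicate 1 (0.176), CRAMP1-KO replicate 2 (0.0557) or CRAMP1-KO replicate 3 (0.0712). The neighbouring regions at TAF7 and PCDHGA1 differed by 0.08 (limma adjusted p = 0.596) and -0.02 (limma adjusted p = 0.955).

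**Figure D5:**
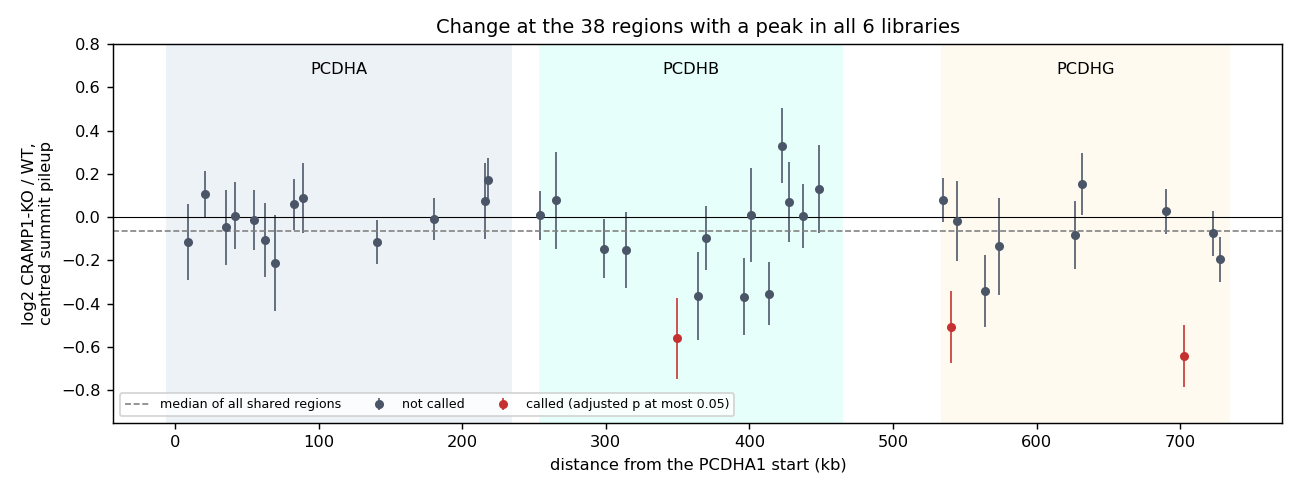
Difference of centred log2 summit pileup, CRAMP1-KO minus WT (vertical axis, bars are the limma SE), at the 38 regions with a peak in all 6 libraries, against distance from the PCDHA1 start in kb (horizontal axis). The 3 called regions, at PCDHB5, upstream of PCDHGA1 and at PCDHGC5, lie between -0.64 and -0.51, while the PCDHA regions lie between -0.21 and 0.17.

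The strongest regions did not pass the test. The difference was -0.12 at PCDHAC1 (log2, SE 0.101, limma adjusted p = 0.422), -0.01 at PCDHAC2 (SE 0.0978, limma adjusted p = 0.957) and 0.03 at PCDHGC3 (SE 0.102, limma adjusted p = 0.877). At PCDHA4 it was 0.11 (SE 0.108, limma adjusted p = 0.493) and at PCDHA11 0.06 (SE 0.118, limma adjusted p = 0.748). No PCDHA region was called, and the 13 changes there ran from -0.21 to 0.17. The highest value in the window was 0.33 at PCDHB12 (SE 0.174, limma adjusted p = 0.156).

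The covered width of shared regions gave no call: 0 of the 38 passed the limma threshold, against 0.0422% of all shared regions, and 5 had an unadjusted p under 0.05. With a replicate block or quantile normalization in limma the calls were again 0, with 3 at an unadjusted p under 0.05. The centred width was narrower in CRAMP1-KO at 31 of the 38 regions, with a median change of -0.15 in the window and -0.04 over all shared regions (log2). PCDHGC3, for instance, spanned 1311, 1244 and 1162 bp in the WT libraries against 1059, 1061 and 1296 bp in those of CRAMP1-KO. Its log2 change was -0.26 (limma adjusted p = 0.284). Neither the share narrower nor the share with an unadjusted p under 0.05 was counted over all shared regions, so these counts are a description. Centred widths are relative to each library. Uncentred, the median width of all peaks in the window was 484 bp in the WT libraries against 518 bp in those of CRAMP1-KO.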

How the data were processed

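Reads were prepared with bcl2fastq 2.20.0 and cutadapt 3.4, and BWA 0.7.17-r1188, MACS3 and the build hg19 are named beside them, per the submitters' processing notes. Settings, read filters and duplicate handling were not given in the sources used here. Every library has its own deposited peak list. Each deposited peak has a score, a fold enrichment (ratio), a −log10 p and a −log10 q. Read totals are unknown, so no counting interval is given.

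Pileup and background were solved from the deposited fold and −log10 p, and 100% of pileups were whole within 0.01. Peaks overlapping by at least 1 bp were merged. Values per library were compared by two-sided exact permutation over 20 assignments. Shared regions (log2 pileup or covered bases, centred on the library median) and tiles (log2 share, pseudocount 0.5, at least 5 peaks on average) were fitted with limma 3.58.1 in R 4.3.3, with Benjamini-Hochberg adjustment over the genome and a threshold of 0.05. Solver and fits were tested on simulated data. All gene starts could be named. Regions were named if called, if present in 1 genotype alone, or if among the 3 strongest of a window, and a few others were named after their values were seen. The members and lists were chosen with earlier results of these data known. Python 3.11.15 and scipy 1.17.1 were used.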

Additional observations from a re-analysis of the deposited data

How the results depend on the processing

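Differences are CRAMP1-KO minus WT. Without each library in turn, the peak share per 10000 ran from -0.372 to 0.0542 for the window, from -0.00789 to 0.110 for PCDHA, from -0.0930 to 0.00712 for PCDHB and from -0.269 to -0.0535 for PCDHG. It changed sign for PCDHA without WT replicate 1, and for the window and PCDHB without WT replicate 3. The covered share (per 1000000 bases) was -31.7 at a −log10 q of at least 5 and -36.5 at 10, both without overlap. In lists of equal length it was -34.5, with overlap (exact permutation p = 0.3). It ran from -36.2 to -19.5 without each library in turn. The median width difference was -1.67 bp at a −log10 q of at least 5, 57.7 bp at 10 (without overlap) and -0.115 relative to the median width of the list, and ran from 15.7 to 48.9 bp without each library. The spacing difference was 194 bp at a −log10 q of at least 5, 1167 bp at 10 and 701 bp in lists of equal length, each with overlap. The log2 tile difference ran from -0.153 to 0.0325 without each library and was positive without WT replicate 3. The causes of these shifts were not tested.

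Of the 38 shared regions, the pileup fit called 3. It called 1 after division by the lowest background (PCDHGC5) and 1 on fold enrichment (PCDHB5). With summits within 100 bp it called 1 (upstream of PCDHGA1), and PCDHGC5 and PCDHB5 were not among the 28 regions tested. Without each library it called from 2 to 5, the 5 without WT replicate 3. Quantile normalization called 4, with the region chr5:140383496-140384256 higher. Same-numbered libraries correlated at 0.0556, 0.0622 and -0.0903, so the numbers were not taken as pairs. With the replicate block the pileup fit called the same 3 regions, the tile fit gave a limma adjusted p of 0.806, and no other call changed. Moving each start by its spacing difference, an alternative chosen after seeing the data, took the median summit position from 329 to 349 bp in PCDHA, from -29.5 to -122 bp in PCDHB and from -170 to -141 bp in PCDHG.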
